A study of Mus musculus with 6 samples.

Results

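ATP-binding cassette (ABC) transporters were examined in mouse brain RNA of the subventricular zone (SVZ), a neural stem cell niche beside the lateral ventricle. The members are the genes whose symbol is Abc, a letter from a to g and a number, and 48 of the 18614 genes in the deposited table met that rule. They fall into 14 genes of subfamily A, 10 of B, 10 of C, 4 of D, 1 of E, 3 of F and 6 of G, and all 48 are annotated as protein coding. A further 2 genes that carry such a symbol in the RefSeq gene table, Abca15 and Abca16, have no row and were not analysed here.

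The study compared mice wild type for Zhx2 (Zhx2+/+, here WT) with mice homozygous for a Zhx2 deletion allele (Zhx2Δ/Δ, here KO), with 3 bulk RNA libraries in each group. Zhx2 encodes a zinc finger and homeobox transcriptional repressor. The titles place KO 2 and KO 3 in the Zhx2 group, while their genotype tags name ZHX3 KO and ZHX4 KO. Neither age, sex and strain nor whether each library came from its own animal is stated in the labels, so p-values cover only how far these libraries differ, which may be a technical spread.

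An ABC protein couples the binding and hydrolysis of ATP by a paired nucleotide-binding domain to the movement of a substrate across a membrane. Subfamilies A and G are known mainly for lipids and sterols, B for drugs, peptides and mitochondrial cargo, C for organic anions and for regulating potassium channels, and D for fatty acyl-CoA entry into peroxisomes. Subfamilies E and F have no membrane-spanning part and act on the ribosome. In the brain, members of capillary endothelium and of the choroid plexus, where cerebrospinal fluid is secreted, limit what enters from blood, and members in glia move cholesterol and phospholipid to apolipoproteins.

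Library totals lay between 17037152 and 17685906 estimated counts, and the upper limit that a count of 0 allows (3 counts) is 0.162 to 0.18 CPM (counts scaled to the TMM-adjusted library size); it covers counting error only. Zhx2 itself was not reduced in any library of the KO group, at 735, 675 and 659 estimated counts across WT against 1139, 1004 and 959 across KO (log2 fold change 0.61, SE 0.10, adjusted p = 0.163 in edgeR and 0.00142 in DESeq2, which called it higher). Where values are given across WT or across KO, they are those of replicates 1, 2 and 3 in turn, and KO stands for the libraries so labelled. Every direction here rests on these labels. All 12 listed markers of SVZ progenitors and neuroblasts were detected, with a summed level of 325 to 454 CPM in WT and 312 to 372 CPM in KO-labelled libraries. Summed levels of markers of neighbouring tissue differed between libraries. The 23 choroid plexus markers summed to 24397, 19043 and 5851 CPM across WT against 656, 970 and 548 CPM across KO, and the 12 striatal neuron markers to 856, 10953 and 3335 CPM across WT against 4982, 6425 and 6476 CPM across KO.

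The family as a whole was a small part of each library. Its 48 genes took 0.216%, 0.215% and 0.204% of the counts of WT 1 to 3 and 0.193%, 0.2% and 0.195% of those of KO 1 to 3. Of the 48 genes, 38 had enough counts to be tested and 10 did not. Among the 38, 17 had a log2 fold change below 0, against 46.6% of all genes tested, and 21 above 0. Their median was 0.03, and that of all 15126 genes tested was 0.02. None of the 38 passed an adjusted p of 0.05 in edgeR's quasi-likelihood test, where 0% of all genes passed, and none passed in limma-voom, with 0% of all genes. DESeq2, which called 2.06% of all genes, 2.02% as lower and 0.0397% as higher in KO-labelled libraries, called 1 member, Abca4, as lower. At an unadjusted p under 0.05 in edgeR there were 6 lower and 0 higher members, a share of 15.8% of the 38, where 6.39% of all genes were lower and 2.68% higher (9.07% in either direction).

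In TMM-scaled CPM, values of WT and KO-labelled libraries did not overlap for 7 of the 38 members (18.4%). The share over all genes tested was 16.7%, so that on this scale the members were near the background. The 5 members below were Abca4, Abca5, Abca7, Abca8a and Abcc4, against a background of 8.74% of genes, and the 2 above were Abcd2 and Abcf2, against 8% of genes. On the FPKM scale, which carries no TMM scaling, 11 of the 38 members did not overlap, against 16.2% of all genes, with 8 below (9.92% of all genes) and 3 above (6.23% of all genes). The 4 added on that scale were Abca1, Abca2, Abca6 and Abcf1, so that by FPKM the share was above the background. With upper quartile scaling 8 members were below and 2 above, and with DESeq2 size factors 6 were below and 2 above. The share over all genes was not computed for these scalings.

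**Figure D1:**
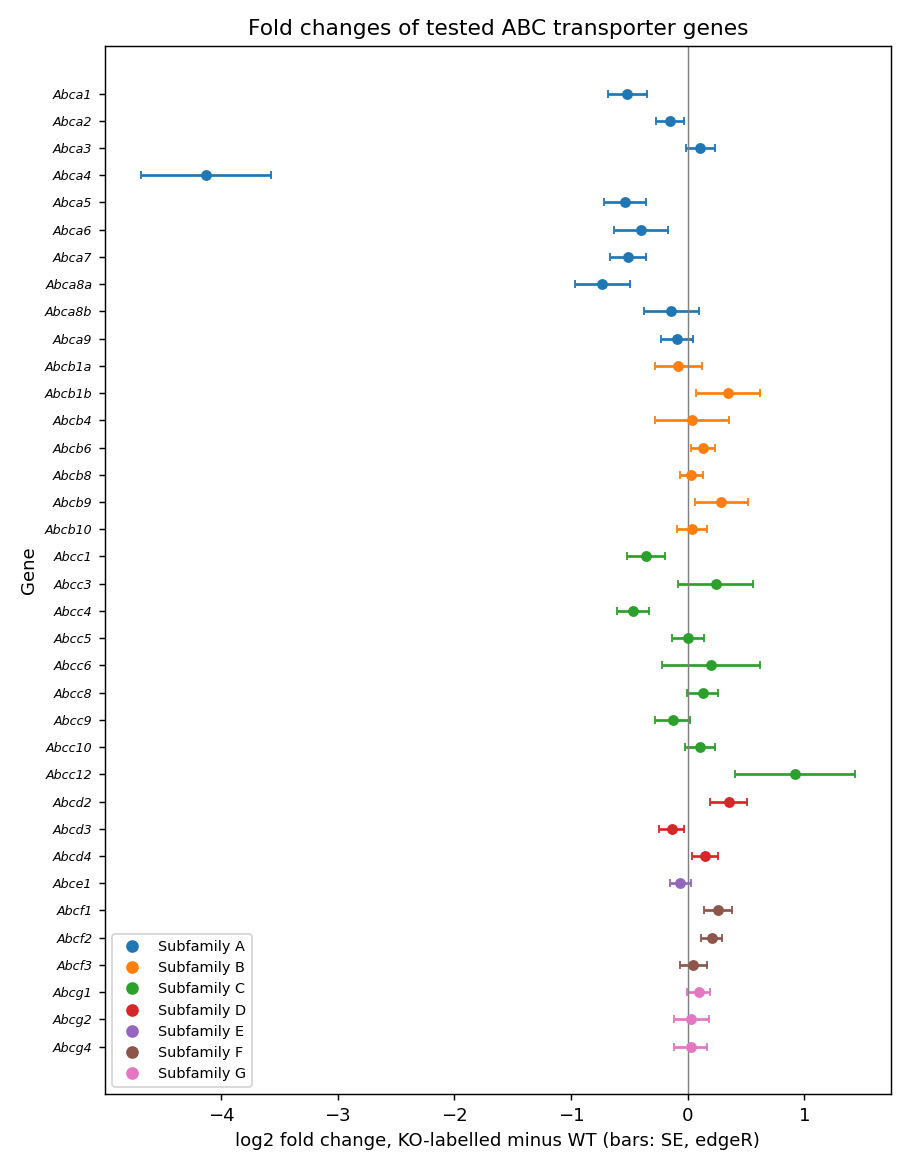
Log2 fold change of 36 of the 38 tested ABC transporter genes, KO-labelled minus WT, on the horizontal axis, with bars for the standard error (edgeR, n = 3 libraries per group) and colours for the subfamily. Abca4 stands at -4.13, while each of the other 35 genes drawn lies between -0.73 and 0.92.

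Within subfamily A, the full-length lipid transporters, 9 of 10 tested genes had a log2 fold change below 0, with a median of -0.46. Of the family's 6 genes at an unadjusted p under 0.05, 5 belonged to it, all lower. Over all genes tested, 46.6% were below 0, the median was 0.02, and 6.39% were lower at an unadjusted p under 0.05. Abca4 had by far the widest gap between the groups of any member. It encodes a flippase for retinal adducts best known from photoreceptors. Its level was 75.5, 74.1 and 22.1 CPM across WT against 2.30, 4.61 and 2.88 CPM across KO, that is 57.2 ± 30.4 and 3.26 ± 1.202 CPM (SD, n = 3). WT 3 was well below the other two WT libraries but above every KO-labelled one. This rests on 1395, 1234 and 381 estimated counts across WT against 39, 80 and 49.4 across KO. The KO-labelled mean was 5.70% of the WT mean, and the log2 fold change was -4.13 (SE 0.56).

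That difference in Abca4 did not pass in edgeR (adjusted p = 0.144) or limma-voom (adjusted p = 0.350), and passed in DESeq2 (adjusted p = 1.79e-15). Without WT 3 it also passed in edgeR (log2 fold change -4.51, adjusted p = 0.00447), where 0.895% of all genes were called as lower. WT 3 was the WT library nearest to KO, and leaving it out widens the gap. With any other single library left out, the edgeR adjusted p was between 0.286 and 0.494, and the log2 fold change between -4.46 and -3.88. In fits added after the data were seen, DESeq2 called Abca4 whichever of the 6 libraries was left out, with an adjusted p of at most 1.59e-08.

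Choroid plexus markers differed between the same libraries. All 23 of the list had a log2 fold change below 0, with a median of -5.04, and 22 of 23 were called by DESeq2 and 0 by edgeR. The sum of the list lay between 5851 and 24397 CPM in WT and between 548 and 970 CPM in KO-labelled libraries. No marker was at 0 in every KO-labelled library, while Lmx1a was at 0 in KO 1 and KO 3 and Tmem72 in KO 1. Abca4 amounted to 0.309%, 0.389% and 0.378% of the list's sum across WT against 0.350%, 0.475% and 0.525% across KO. This proportion overlapped between groups, but different genes led the sum. Ttr and Enpp2 were its largest terms in each WT library, and Enpp2 and Igf2 in each KO-labelled one. Ttr fell from 15337, 10670 and 3133 CPM across WT to 13.02, 114.5 and 13.62 CPM across KO. Log2 fold changes of single markers ran from -7.69 (Ttr) to -1.44 (Igf2), and that of Abca4 was -4.13. The overlap thus holds for this sum only, and proportions to single markers were not tested. The part of choroid plexus content in the Abca4 difference was not tested. In bulk RNA fewer cells of a type and less RNA per cell cannot be told apart.

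**Figure D2:**
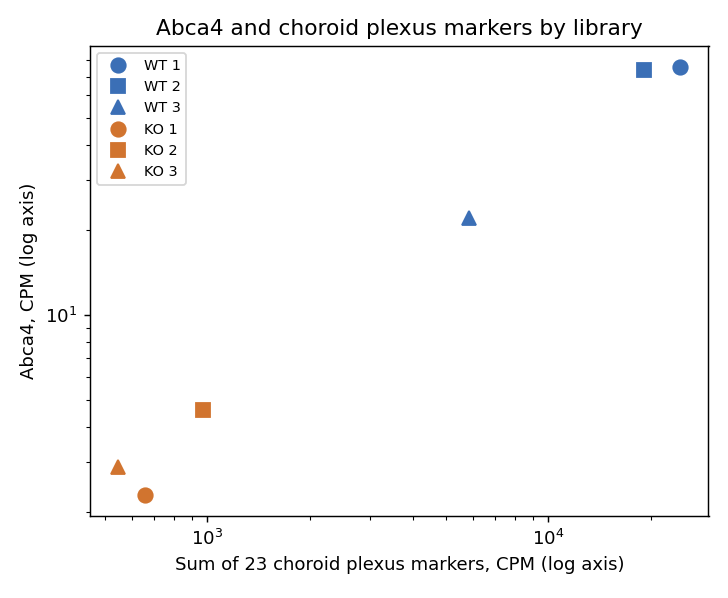
Level of Abca4 in CPM (vertical log axis) against the summed level of the 23 choroid plexus markers in CPM (horizontal log axis), 1 point per library. WT 1 and WT 2 sit at the top right, WT 3 lies between at 22.1 CPM of Abca4, and KO 1 to 3 sit at the lower left, below 4.7 CPM of Abca4.

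In mm10, Abca4 (NCBI gene 11304) spans 122043891 to 122180070 of chromosome 3, plus strand. That span covers all of its transcript models, which differ in their first base. The 250 bases before the start used in the RefSeq promoter table, 122044460, are shown because Abca4 is the member on which the comparison turns. They come from GRCm38.p6, the sequence of mm10, chr3:122044210-122044459, plus strand, 5′ to 3′, and all 250 lie inside the gene span, downstream of its outermost start. Capitals mark every match on either strand to TAATCC, the core bound by OTX and CRX homeodomain proteins, and to TATAAA.
Abca4: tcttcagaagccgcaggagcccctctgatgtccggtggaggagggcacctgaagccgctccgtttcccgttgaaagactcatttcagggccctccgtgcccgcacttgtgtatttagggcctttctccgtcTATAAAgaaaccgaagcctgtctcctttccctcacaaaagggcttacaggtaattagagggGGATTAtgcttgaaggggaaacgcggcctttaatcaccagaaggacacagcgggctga
The TAATCC match is on the minus strand, starting 58 bases before the start used in that table, and the TATAAA match starts 119 bases before it. TAATCC occurs in 6.25% of the 32841 promoter windows of this length in the table and TATAAA in 12.4%, with no overlap between the matches here. Counted per gene, 7.21% of 27018 genes hold TAATCC. Of the 26 tested members with a window, 5 hold it, namely Abca4, Abca9, Abcb1b, Abce1 and Abcf2. The other 4 of these lie between -0.09 and 0.35 in log2 fold change. Among the same 26, TATAAA was in 3 (14.3% of the 27018 genes), CCAAT in 7 (37.5%) and GGGCGG in 16 (35.4%). Those 27018 genes were not limited to genes tested here, as the 26 members were, so the shares are not like for like. Otx2, a homeodomain gene on the choroid plexus list, was at 84.8, 60.9 and 25.6 CPM across WT against 4.83, 11.98 and 8.98 CPM across KO. All 23 genes of that list had a log2 fold change below 0, and a link between Otx2 and Abca4 was not tested. The motif was chosen with earlier results of these data known. A match is a description of letters and not a measured binding site.

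Abca1, which loads cholesterol and phospholipid onto lipid-poor apolipoproteins, was at 74.3, 82.2 and 59.0 CPM across WT against 45.6, 45.9 and 59.0 CPM across KO. The groups met at WT 3 and KO 3, and the other 4 libraries were apart. The means were 71.8 ± 11.8 and 50.2 ± 7.66 CPM (SD, n = 3), and the difference did not pass in edgeR (log2 fold change -0.52, SE 0.16, adjusted p = 0.423). DESeq2 called it as lower without WT 3 (log2 fold change -0.65, adjusted p = 0.0377), and not with all 6 libraries (adjusted p = 0.216). WT 3 was the WT library nearest to KO, and leaving it out widens the gap. The DESeq2 fit without WT 3 was added after the data were seen. In mm10, Abca1 spans 53030789 to 53159988 of chromosome 4, minus strand. Its promoter is shown since the liver X receptor (LXR) element in it is a textbook control site of cholesterol efflux. The 250 bases before the start used in the RefSeq promoter table, 53159895, are at chr4:53159896-53160145 of GRCm38.p6, minus strand, 5′ to 3′ of the gene, with 93 of them inside the gene span, with capitals for that element and for TATAAA.
Abca1: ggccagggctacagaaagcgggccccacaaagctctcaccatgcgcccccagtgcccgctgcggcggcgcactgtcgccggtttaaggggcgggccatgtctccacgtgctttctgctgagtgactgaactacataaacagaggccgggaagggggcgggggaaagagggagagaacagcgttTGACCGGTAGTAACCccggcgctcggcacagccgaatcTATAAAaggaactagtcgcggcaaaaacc
The LXR element of the Abca1 promoter was searched on both strands with its spacer free, in a form written after this promoter had been read. It occurs in 4 of the 32841 windows (0.0122%) and in no other member's window, and it starts 67 bases before the start used in the table, without overlapping the TATAAA match at 29 bases. Its presence here was thus fixed in advance, and its absence from other windows does not bear on LXR control of other members.

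The other subfamily A genes with an unadjusted p under 0.05 were Abca5, Abca7 and Abca8a. Abca5, a lysosomal and endosomal lipid transporter gene, was at 47.1, 47.7 and 42.9 CPM across WT against 32.2, 24.0 and 38.6 CPM across KO, with no overlap (log2 fold change -0.54, SE 0.18, edgeR adjusted p = 0.438). Abca7, a phospholipid transporter gene and a risk locus for Alzheimer disease in humans, was at 28.3, 25.8 and 22.7 CPM across WT against 16.4, 21.5 and 16.0 CPM across KO. Its groups did not overlap either, and its log2 fold change was -0.51 (SE 0.16, edgeR adjusted p = 0.402). Abca8a, one of a run of related A genes on chromosome 11, was at 23.8, 21.7 and 18.1 CPM across WT against 17.5, 10.6 and 10.2 CPM across KO. KO 1 lay just below WT 3, and the log2 fold change was -0.73 (SE 0.24, edgeR adjusted p = 0.433). With all libraries DESeq2 passed none of these 3 genes (adjusted p = 0.245 for Abca5, 0.245 for Abca7 and 0.228 for Abca8a). It passed each in 1 fit with a library left out, among fits added after the data were seen. The passing fits were Abca8a without KO 1 (adjusted p = 0.000937), Abca7 without KO 2 (adjusted p = 0.0276) and Abca5 without KO 3 (adjusted p = 0.0268). In each case the library left out was the KO-labelled one nearest to WT, and leaving it out widens the gap.

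For Abca4, Abca7 and Abca8a the lowest WT library was WT 3, which also had the lowest choroid plexus marker sum in WT. The same holds for Abca1 and Abca5. Among KO-labelled libraries that sum was highest in KO 2, where Abca4 and Abca7 were also highest. By contrast, Abca5 was lowest in KO 2, Abca1 was highest in KO 3 and Abca8a was highest in KO 1. Ependymal and motile cilium markers were also lower in KO-labelled libraries, with 18 of 18 log2 fold changes below 0 and a median of -1.13. They summed to 285 to 427 CPM in WT and 143 to 195 CPM in KO-labelled libraries. None of those 18 markers was at 0 in any library. Fibroblast and meningeal markers, with 6 of 12 below 0 and a median of -0.04, summed to 317 to 537 CPM in WT and 187 to 423 CPM in KO-labelled libraries, none of them at 0. The part of these cell types in the values of subfamily A was not tested.

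In a cluster on chromosome 11, all 5 genes had a log2 fold change below 0, as had 46.6% of all genes tested. The values ran from -0.73 for Abca8a to -0.09 for Abca9, and differences between them were not tested. With single libraries left out in edgeR, the sign was not kept for Abca8b (up to 0.046) and Abca9 (up to 0.0040). Abca8b, Abca8a, Abca9, Abca6 and Abca5 lie in that order, all on the minus strand, from 109932206 to 110337723, with between 3168 and 29359 bases between one gene and the next. Abca8b was at 18.4, 32.0 and 26.0 CPM across WT against 22.5, 18.8 and 27.9 CPM across KO (log2 fold change -0.14, SE 0.23), and the groups overlapped. Abca9 was at 12.4, 15.8 and 13.3 CPM across WT against 12.6, 13.8 and 12.6 CPM across KO (log2 fold change -0.09, SE 0.14). Abca6 was at 5.47, 7.08 and 5.74 CPM across WT against 5.596, 3.51 and 4.76 CPM across KO (log2 fold change -0.40, SE 0.23). Abca8a and Abca8b are close copies, and reads that fit both may have been split between them.

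Abca2 and Abca3, both transporters of lipid into lysosome-related organelles, were the highest of subfamily A per length. Abca2, abundant in oligodendrocytes, was at 518, 486 and 474 CPM across WT against 481, 462 and 388 CPM across KO, with a log2 fold change of -0.15 (SE 0.12, edgeR adjusted p = 0.745). KO 3 was the lowest for Abca2 and also for the 12 oligodendrocyte markers, which summed to 8856 CPM there, 20409 CPM in KO 1, 12067 CPM in KO 2 and 14497 to 14796 CPM in WT. Of their log2 fold changes 11 of 12 were below 0, with a median of -0.09 and none at 0; their part in the Abca2 values was not tested. Abca3, the surfactant lipid transporter gene of the lung, was the one tested gene of subfamily A above 0, at 94.0, 93.1 and 103 CPM across WT against 87.9, 114 and 111 CPM across KO (log2 fold change 0.11, SE 0.13).

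**Figure D3:**
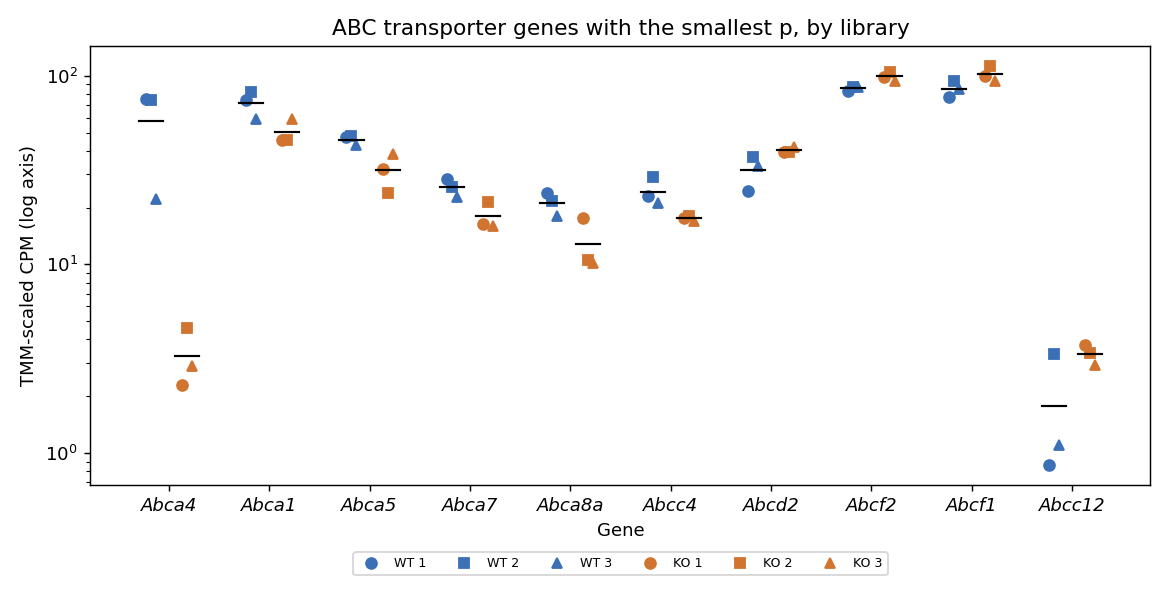
Level in TMM-scaled CPM (log axis) of 10 ABC transporter genes in each library, with circles, squares and triangles for replicates 1 to 3 and black lines for group means. The genes are the 6 at an unadjusted p under 0.05, all lower in KO-labelled libraries, and the 4 with the smallest p among those higher. Abca4 spans 2.30 to 75.5 CPM, while the groups of the other genes lie close together or overlap.

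Subfamily B holds the multidrug pumps, the peptide transporters and the mitochondrial half-transporters, and none of its 8 tested genes was at an unadjusted p under 0.05 or free of overlap. Abcb1a, the main P-glycoprotein gene of mouse brain capillaries, was at 25.4, 38.3 and 38.8 CPM across WT against 28.4, 38.3 and 30.2 CPM across KO. The spread within each group was larger than the difference of the means, at 34.2 ± 7.62 and 32.3 ± 5.25 CPM (log2 fold change -0.08, SE 0.20, edgeR adjusted p = 0.929). Its tandem copy Abcb1b was at 2.22 ± 0.385 CPM in WT against 2.83 ± 0.666 CPM in the KO-labelled group (log2 fold change 0.35, SE 0.28). The pair share much sequence, and Abcb1a also overlaps Rundc3b on the other strand over 55994 bases; whether the counting used strand is not given in the sources used here. The 16 endothelial markers summed to 630 to 745 CPM in WT and 569 to 691 CPM in KO-labelled libraries, with a median log2 fold change of 0.09, 7 of 16 below 0 and none at 0. DESeq2 called 3 of them as lower, against 2.02% of all genes, and edgeR called 0. The 3 were Ocln, Slco1c1 and Kdr, with edgeR log2 fold changes of -1.15, -1.01 and -0.88. The list was mixed, with 9 of 16 above 0. At an unadjusted p under 0.05 in edgeR, 4 were lower and 1 was higher, Ly6c1 (log2 fold change 0.37).

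Among the mitochondrial members, Abcb6, a porphyrin transporter gene, was at 16.7 ± 0.548 CPM in WT against 18.2 ± 1.14 CPM in the KO-labelled group, and Abcb8 and Abcb10 had log2 fold changes of 0.03 and 0.04. Abcb9, a lysosomal peptide transporter gene, was at 30.9, 57.7 and 40.6 CPM across WT against 49.8, 59.8 and 48.1 CPM across KO (log2 fold change 0.29, SE 0.23). Abcb4, the phosphatidylcholine flippase gene of bile, was at 3.19 to 6.84 CPM over all 6 libraries.

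Subfamily C holds the multidrug resistance proteins and the sulfonylurea receptors. Among its 9 tested genes, Abcc4 was the 1 at an unadjusted p under 0.05, against 9.07% of all genes. Its product exports organic anions and cyclic nucleotides. Abcc4 was at 22.9, 28.9 and 21.1 CPM across WT against 17.6, 18.1 and 16.97 CPM across KO. The KO-labelled libraries lay close together and all below WT, with means of 24.3 ± 4.09 and 17.6 ± 0.560 CPM (SD, n = 3). That difference did not pass in edgeR (log2 fold change -0.47, SE 0.14, adjusted p = 0.394), and over 20 alternative fits its adjusted p was between 0.130 and 0.827. Abcc1, the glutathione conjugate exporter gene found in choroid plexus and astrocytes, was at 30.5, 37.7 and 27.0 CPM across WT against 21.0, 27.5 and 25.8 CPM across KO, overlapping at WT 3 and KO 2 (log2 fold change -0.36, SE 0.16, edgeR adjusted p = 0.584). WT 3 was again the lowest WT library for both.

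Abcc12, a low-level member, had the highest log2 fold change of the family, 0.92 (SE 0.51), which did not pass in edgeR (adjusted p = 0.648). It was at 0.866, 3.36 and 1.10 CPM across WT against 3.71, 3.398 and 2.94 CPM across KO, so that WT 2 sat within the KO-labelled range. Without WT 2 the log2 fold change was 1.75 in edgeR and 1.76 in DESeq2, which then called it (adjusted p = 0.0106). WT 2 was the WT library nearest to KO, and leaving it out widens the gap. That DESeq2 fit was added after the data were seen. Striatal neuron markers were in the same libraries lowest in WT 1 and WT 3 and highest in WT 2, with 12 of 12 log2 fold changes above 0, a median of 0.24 and none at 0. The part of striatal tissue in the Abcc12 values was not tested.

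The sulfonylurea receptor genes Abcc8 and Abcc9 encode the regulatory subunits of ATP-sensitive potassium channels. Abcc8, the neuronal form, was at 20.6 ± 0.735 CPM in WT against 22.5 ± 3.43 CPM in the KO-labelled group, with KO 2 highest at 26.3 CPM. Abcc9, a marker of pericytes and smooth muscle, was at 13.8, 18.7 and 14.6 CPM across WT against 13.9, 13.6 and 15.5 CPM across KO (log2 fold change -0.13, SE 0.15). Their pore partners showed no call: Kcnj11 was at 31.2 ± 8.54 CPM in WT against 37.9 ± 2.80 CPM in the KO-labelled group, and Kcnj8 at 4.22 ± 0.674 and 5.68 ± 0.763 CPM (edgeR adjusted p = 0.724 and 0.600). Abcc5, a broadly expressed nucleotide and heme exporter gene, was the most abundant of subfamily C per length, at 215 ± 30.1 CPM in WT against 215 ± 19.5 CPM in the KO-labelled group, with WT 1 lowest at 181 CPM. Abcc3, Abcc6 and Abcc10 overlapped between groups, with log2 fold changes between 0.11 and 0.24.

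The 4 genes of subfamily D are half-transporters, mainly of peroxisomes, while Abcd4 is known for lysosomal cobalamin export. Abcd2, which carries very long-chain fatty acyl-CoA, was at 24.5, 37.0 and 33.1 CPM across WT against 39.3, 39.3 and 42.0 CPM across KO. All 3 KO-labelled libraries lay above WT, with means of 31.5 ± 6.37 and 40.2 ± 1.59 CPM, a difference short of the threshold in edgeR (log2 fold change 0.35, SE 0.16, adjusted p = 0.579). Abcd3, the major peroxisomal membrane protein gene, was at 71.9 ± 3.51 and 65.3 ± 6.32 CPM (log2 fold change -0.14, SE 0.11). Abcd4 was at 13.4 ± 0.974 and 14.8 ± 0.513 CPM (SD, n = 3; log2 fold change 0.15, SE 0.11).

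None of the 4 ribosome-acting genes was at an unadjusted p under 0.05 in edgeR. Abce1, which splits ribosomes after termination, was at 91.6, 96.6 and 94.9 CPM across WT against 89.9, 86.3 and 94.7 CPM across KO (log2 fold change -0.06, SE 0.09). Abcf2 was at 83.4, 87.4 and 87.2 CPM across WT against 98.5, 105 and 93.9 CPM across KO, with no overlap between the groups (log2 fold change 0.20, SE 0.09, edgeR adjusted p = 0.568). Abcf1, which binds initiation factor eIF2, was at 76.7, 94.2 and 85.4 CPM across WT, and its KO-labelled libraries ranged from 93.8 CPM in KO 3 to 113 CPM in KO 2 (log2 fold change 0.26, SE 0.12, edgeR adjusted p = 0.588). KO 3 and WT 2 met. Abcf3 overlapped between groups, with a log2 fold change of 0.05.

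Subfamily G holds the half-transporters of sterols and drugs, and its 3 tested genes had log2 fold changes between 0.03 and 0.09. Abcg1, which moves cholesterol to high-density lipoprotein and is controlled by LXR as Abca1 is, was at 112, 115 and 111 CPM across WT against 131, 114 and 114 CPM across KO. Its log2 fold change was 0.09 (SE 0.10, edgeR adjusted p = 0.803), against -0.52 for Abca1; the difference between these 2 genes was not tested. Abcg4, a neuronal and astrocytic sterol transporter gene, was at 91.1, 67.0 and 86.0 CPM across WT against 75.8, 84.8 and 88.0 CPM across KO. Abcg2, the breast cancer resistance protein gene and a side-population marker of stem cells, was at 12.8, 13.4 and 15.2 CPM across WT against 12.02, 16.1 and 14.2 CPM across KO. Both of these had a log2 fold change of 0.03 (SE 0.14 and 0.15).

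Levels between genes were compared per length, as FPKM summed over a gene's transcripts. Abca2 was highest in every library (60.5 ± 4.66 FPKM in WT and 53.5 ± 5.50 FPKM in KO-labelled libraries), and its range did not meet that of the next gene. Abcf2 (33.6 ± 0.372 and 37.9 ± 2.35 FPKM), Abcc5 (32.7 ± 2.81 and 32.9 ± 2.58 FPKM) and Abcf1 (27.2 ± 1.89 and 32.0 ± 3.26 FPKM) followed, with ranges that met. From there each gene's range over the 6 libraries overlapped that of its neighbour in the order down to Abcc9, at 2.12 ± 0.289 and 1.90 ± 0.142 FPKM. By group mean, Abca4 ranked 15 of 48 in WT, at 8.51 ± 4.65 FPKM, and 37 of 48 in KO-labelled libraries, at 0.510 ± 0.223 FPKM. The summed FPKM of subfamily A was 102 to 122 in WT and 86.6 to 93.3 in KO-labelled libraries, and that of the F genes 80.3 to 80.5 and 85.1 to 98.9. Those of B, C and G overlapped between groups.

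**Figure D4:**
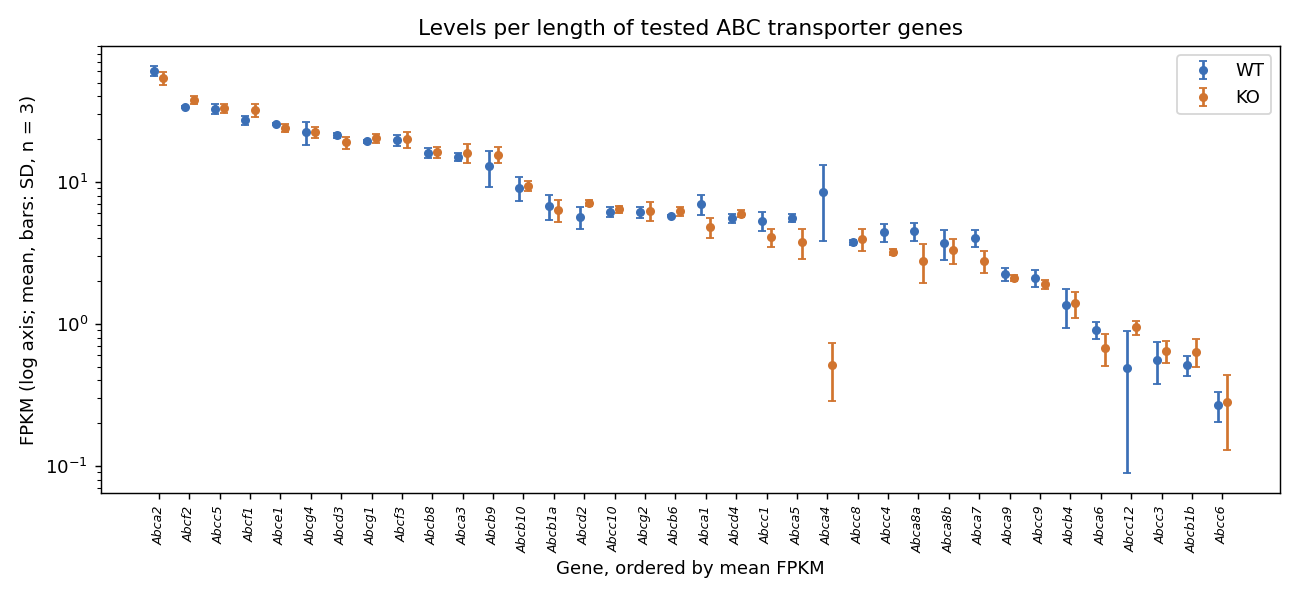
FPKM of 36 of the 38 tested ABC transporter genes (vertical log axis), ordered by mean level, with points for the group mean and bars for the SD (n = 3 libraries). Abca2 leads at 60.5 FPKM in WT, and Abca4 is the 1 gene whose group means are far apart, at 8.51 and 0.510 FPKM.

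The 10 members below the count filter had few counts. Abca17 reached 17.4 counts in KO 1 and Abcg3 14 counts in KO 2, and each of the other 8 had at most 8 counts in any library. Abca14 and Abcb5 were at 0 in 5 of 6 libraries and had 1 count in the other, and Abcb11, the bile salt export pump gene, was at 0 in 3. The sterol pair Abcg5 and Abcg8, which overlap on opposite strands over 6710 bases, had at most 5 and 3 counts, and Abcc2 at most 7. Abca12 and Abca13 had at most 8 and 6. Abcg5 did not overlap between groups, at 4, 5 and 4 counts across WT against 3, 1 and 1 across KO. These genes were not tested in the main fit, and no difference is read from such counts.

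Transcript models of a member were not interpreted singly. The 48 genes carry 176 RefSeq transcripts, and estimated counts moved between models of a gene from library to library. The main model of Abcc4 held 77.5%, 23.5% and 26.3% of its counts in WT 1 to 3, and that of Abca4 between 0% and 85.9% over the 6 libraries.

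Genes that work with the transporters were read from lists, and none of their members passed over all genes in edgeR. Among 24 tested solute carriers of brain barriers, which transport many of the same substrates, 15 had a log2 fold change below 0, with a median of -0.24, 9 were at an unadjusted p under 0.05 as lower and 1 as higher, and DESeq2 called 4 as lower. The shares over all genes were 6.39%, 2.68% and 2.02%. The organic anion transporter genes Slco1a5 (log2 fold change -3.43, SE 0.57) and Slco1c1 (-1.01, SE 0.19) and the copper transporter gene Slc31a1 (-1.85, SE 0.35) had the smallest p. Slco1c1, a thyroxine transporter gene of capillaries and choroid plexus, was at 130, 142 and 91.5 CPM across WT against 68.2, 58.1 and 54.0 CPM across KO. The sums of this list were 594 to 789 CPM in WT, lowest in WT 3, and 468 to 528 CPM in KO-labelled libraries. The 23 choroid plexus markers, all with a log2 fold change below 0 (median -5.04), were lower in the same libraries, and their part in these values was not tested.

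Over all genes tested, 46.6% had a log2 fold change below 0, and 6.39% were lower and 2.68% higher at an unadjusted p under 0.05. Single genes at that level in the lists below are to be read beside these shares. Of 21 tested sterol and lipid efflux partners, 14 had a log2 fold change below 0 (median -0.06), 3 of them at an unadjusted p under 0.05. These were Pltp (-0.54, SE 0.19), the phospholipid transfer protein gene, Srebf1 (-0.29, SE 0.11), an LXR target, and Apoc1 (-0.96, SE 0.40). Of 8 xenobiotic regulators 6 were below 0 (median -0.18), with 1 at an unadjusted p under 0.05, Hif1a (-0.44, SE 0.16), ahead of Ppara (-0.33) and Keap1 (0.13). In peroxisomal fatty acid oxidation 8 of 18 were below 0 (median 0.02), and Acox3 (-0.23, SE 0.09) was the 1 at an unadjusted p under 0.05, before Cat (-0.17) and Hacl1 (-0.28).

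For the next 3 lists the shares over all genes are again 6.39% lower and 2.68% higher at an unadjusted p under 0.05. In heme and iron-sulfur synthesis 9 of 20 were below 0 (median 0.03), with Fdx2 higher at an unadjusted p under 0.05 (0.41, SE 0.12) and Fech (-0.21) and Slc25a39 (-0.24) next. Peptide loading had 7 of 12 below 0 (median -0.04), with Erap1 lower at an unadjusted p under 0.05 (-0.52, SE 0.16) and then Psmb8 (0.54) and Pdia3 (-0.18). Ribosome recycling and translation control had 5 of 13 below 0 (median 0.04) and no gene at an unadjusted p under 0.05, Eif2s2 (0.16) and Eif6 (0.20) being among those with the smallest p. DESeq2 called none of the genes of these 6 lists. Among ABC proteins named outside the symbol rule, Tap2 was at 14.02 ± 3.89 CPM in WT against 11.0 ± 1.10 CPM in the KO-labelled group, Tap1 at 4.08 ± 0.850 and 3.92 ± 1.90 CPM and Cftr at 3.02 ± 1.04 and 2.59 ± 0.323 CPM, all with overlapping groups.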

How the data were processed

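RNA from 6 SVZ libraries was sequenced as paired-end reads, per the labels' protocols. The table deposited by the authors gives estimated counts and FPKM for 61481 RefSeq transcripts, per the file headers; the submitters' processing notes name mm10 and limma 3.40.6. Aligner and counter: not given in the sources used here, nor is strandedness. The deposited FPKM are scaled to transcript length and library total: the length implied by count, FPKM and total varied between libraries by at most 0.218% for 99% of the 8447 transcripts checked.

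Transcripts sharing an NCBI gene number had their estimated counts added, and sums were rounded; symbols came from the RefSeq table of GRCm38.p6, which named 18489 of 18614 genes. Genes without a symbol held 0.104% to 0.14% of counts. Groups and replicate numbers came from the titles. Replicates did not agree within sampling noise (chi-square per degree of freedom 21.1 to 99.3). The test was edgeR 4.0.16 in R 4.3.3 (TMM, filterByExpr with a minimum count of 10, robust quasi-likelihood F test, two-sided, group only), with Benjamini-Hochberg adjustment over 15126 genes and a threshold of 0.05; the procedure was tested on simulated data. SE came from the fold change and F. Alternatives included DESeq2 1.42.0 and limma-voom (limma 3.58.1). An exact permutation of 3 against 3 cannot go below 0.1.

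Values per library or group were given for the 10 tested members with the smallest p in each direction and for 23 textbook members, and others in ranges; from each partner list up to 3 genes with the smallest p, and Tap1, Tap2, Cftr, Kcnj8 and Kcnj11, were named. Markers and Otx2 were named outside this rule. Some genes that the rule names are not reported here. Members, lists and the promoter motifs were chosen with earlier results of these data known.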

Additional observations from a re-analysis of the deposited data

How the results depend on the processing

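With a single library left out in edgeR, 0 genes were called, except without WT 3, where 137 genes, 1 ABC transporter gene (Abca4) and 3 partner list genes were. DESeq2 called 311 genes, 1 member and 4 partner genes with all libraries. In DESeq2 fits without single libraries, which were added after the data were seen, it called 139, 348 and 451 genes without WT 1, 2 and 3 and 275, 257 and 318 without KO 1, 2 and 3, with 1 to 2 members and 4 to 9 partner genes (4 or 5 except without WT 3). DESeq2 size factors, upper quartile scaling, no filter, a filter of 1 CPM, limma-voom, the replicate block and KO 1 alone against WT each called 0 genes. The fit of KO 1 alone assumes that it varies like the WT libraries. The number of members without overlap was 11 of 38 by FPKM (16.2% of all genes), and 8 to 14 without single libraries (21.1% to 36.8% of the members, beside 22.9% to 31.3% of all genes). The cause of these changes was not tested.

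Over 20 alternatives, 20 of 29 named members kept the sign of their log2 fold change. The sign turned for Abcc5 with DESeq2 size factors (-0.0056) and DESeq2 (-0.0055), and with KO 1 alone for Abca3 (-0.14), Abcc8 (-0.062), Abcg2 (-0.20) and Abcg4 (-0.10). Without single libraries the edgeR range was -0.11 to 0.076 for Abcc5, -0.073 to 0.13 for Abcg2, -0.33 to 0.046 for Abca8b, -0.16 to 0.0040 for Abca9, -0.25 to 0.021 for Abcb1a, -0.21 to 0.0056 for Abcc9 and -0.11 to 0.12 for Abcg4. In the DESeq2 fits the sign turned without WT 1 for Abcc5 (-0.11) and Abcg2 (-0.018), without WT 2 for Abca8b (0.051), Abca9 (0.0074), Abcb1a (0.0061), Abcc9 (0.0094) and Abcg4 (-0.10), without WT 3 for Abcb1a (0.0099), without KO 1 for Abcc5 (-0.016), without KO 2 for Abcc8 (-0.0087), Abcg2 (-0.084) and Abcg4 (-0.0020), and without KO 3 for Abcc5 (-0.070) and Abcg4 (-0.027). Same-numbered WT and KO libraries did not deviate together (correlations -0.17, -0.07 and -0.07). Deviations from a mean of 3 libraries cancel within a group, so these correlations cannot settle whether the numbers pair anything. Under the replicate block the log2 fold change of Abca4 in edgeR was -3.99 (adjusted p = 0.215).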
